A study of Mus musculus with 13 samples.

Results

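Mural cells wrap the endothelial tube of brain vessels. Pericytes sit in the basement membrane of capillaries, depend on PDGF signals from the endothelium and help to maintain the blood-brain barrier, while smooth muscle cells coat arterioles and arteries, contract to set their diameter and keep their identity through Notch signaling. RNA-Seq values of 10 genes that mark these cells were examined in the midbrain. They were 7 pericyte genes (Pdgfrb, Rgs5, Kcnj8, Abcc9, Vtn, Higd1b and Notch3) and 3 contractile smooth muscle genes (Acta2, Tagln and Myh11). The genes were listed by name, with earlier results of these data known. Each matched 1 of the 49315 genes in the count files, and all 10 were among the 19360 genes that were tested because 3 or more libraries held 10 counts or more.

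The libraries came from midbrain homogenates of 13 young adult male mice on a C57BL/6J background, each library from a separate animal. All mice were Ripk3 fl/fl. Mice with Aldh1l1Cre+ (Cre+) carried a tamoxifen-inducible recombinase under an astrocyte promoter that deletes Ripk3 there, whereas littermates without it (Cre-) kept the gene. Per the methods, animals with this transgene received tamoxifen (60 mg/kg on 5 days). Whether Cre- littermates also received it is not stated there. MPTP, a toxin of dopaminergic neurons, was given at 20 mg/kg on 5 days, or saline in its place, and tissue was taken 3 days later after perfusion, so that each genotype had 3 mice on saline, and MPTP was given to 3 Cre- and 4 Cre+ mice. The recombinase was directed at astrocytes, and mural cells were not its intended target in any group. Whether it also acted in mural cells was not tested. Ripk3 itself had 4 to 40 counts per library, with Cre+ MPTP (4 to 19) and Cre- MPTP (6 to 40) overlapping, too few to check a single animal's genotype.

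Between 11489150 and 29397278 counts per library were assigned to genes, and 2 libraries stood apart. The lowest total was that of Cre- MPTP replicate 1, whose difference from the rest of its group followed GC content across 19294 genes (Pearson r = 0.558, Spearman rho = 0.561, across genes, which are not independent replicates). Cre+ MPTP replicate 4 carried heart muscle RNA: 17 cardiac markers summed to 9243 CPM (counts per 1000000 of the TMM-adjusted library total), against 25.7 to 224.5 in the other 12 libraries. The highest of those 12 was Cre+ Saline replicate 1. Cardiac markers at 0 counts in other libraries were Csrp3 (6 libraries), Myl7 (5), Nppa (1) and Tcap (1). Of the other markers, 8 midbrain dopaminergic neuron genes summed to 255.4 to 366.0 CPM, 7 astrocyte genes to 2497 to 4369, 7 microglia genes to 170.3 to 313.5, 10 fibroblast genes to 205.4 to 398.3, 7 choroid plexus genes to 25.9 to 90.2 and 9 skeletal muscle genes to 105.9 to 327.7, the highest in Cre+ MPTP replicate 4. Of the skeletal muscle sums, Pvalb alone gave 101.5 to 186.6 CPM per library. Ckm, which is also among the cardiac markers, gave 189.0 CPM in Cre+ MPTP replicate 4 and 0.158 to 4.57 in the others. Acta1 was highest in Cre+ MPTP replicate 2 (32.5 CPM). The lowest astrocyte sum was that of Cre- MPTP replicate 1. The 5 red cell genes summed to 1.39 to 15.1 CPM in 12 libraries and to 87.4 in Cre+ MPTP replicate 4.

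Compared per length, as CPM per kilobase of exon, the mural genes spanned a wide range in Cre- Saline tissue. Vtn, encoding the matrix protein vitronectin, was the most abundant at 60.6 ± 4.10 (SD, n = 3) CPM per kilobase. Rgs5, a regulator of G protein signaling that is typical of pericytes, followed at 25.2 ± 4.18, and Acta2, the smooth muscle actin, at 10.5 ± 3.37 (SD, n = 3 each). The ranges of these leading genes did not overlap with those of the next gene in the order. Below them came Pdgfrb (5.66), Notch3 (4.90), Higd1b (3.63), Tagln (2.95), Kcnj8 (2.75), Myh11 (2.28) and Abcc9 (1.59 CPM per kilobase), and each neighbouring pair of these overlapped. Summed per kilobase, the contractile genes came to 15.0 ± 4.77% of the pericyte genes in Cre- Saline, 11.7 ± 3.15% in Cre+ Saline, 11.1 ± 1.62% in Cre- MPTP (SD, n = 3 each) and 10.2 ± 1.45% in Cre+ MPTP (SD, n = 4). The highest of the 13 values, 20.5%, belonged to Cre- Saline replicate 3, which also had the highest level of Pdgfrb, Vtn, Acta2, Tagln and Myh11.

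**Figure D1:**
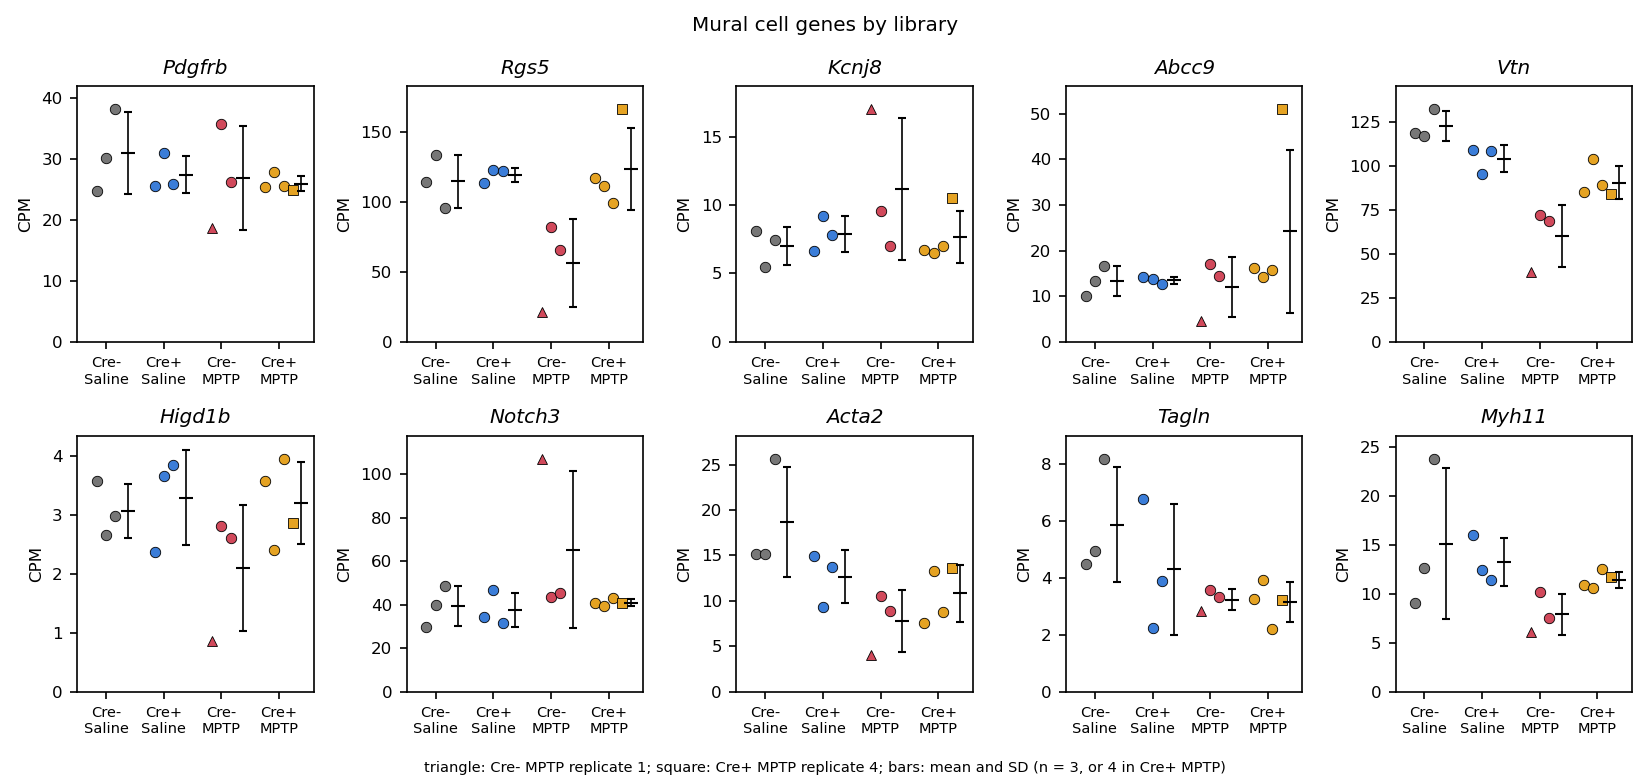
CPM of each of the 10 mural cell genes (y axis, from 0) in each library by group (x axis), with the mean and SD of the group beside the points. The 3 Cre- MPTP libraries lie below all 10 others for Rgs5 and Vtn; the triangle (Cre- MPTP replicate 1) is highest for Kcnj8 and Notch3, and the square (Cre+ MPTP replicate 4) is highest for Rgs5 and Abcc9.

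To show the region in front of the genes that were lowest in Cre- MPTP tissue, the 250 bases before the start are given 5′ to 3′ for Vtn (GRCm38.p6, chromosome 11, 78498870 to 78499119, plus strand), Rgs5 (chromosome 1, 169655251 to 169655500, plus strand) and Acta2 (chromosome 19, 34255374 to 34255623, minus strand), from RefSeq. Capitals mark TGGGAA, the core bound by RBPJ, the DNA-binding partner of Notch receptors.
Vtn: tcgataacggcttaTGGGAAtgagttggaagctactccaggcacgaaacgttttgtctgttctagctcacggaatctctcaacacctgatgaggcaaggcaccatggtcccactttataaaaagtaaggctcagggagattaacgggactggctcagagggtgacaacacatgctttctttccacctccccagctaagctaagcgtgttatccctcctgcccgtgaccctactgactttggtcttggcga
Rgs5: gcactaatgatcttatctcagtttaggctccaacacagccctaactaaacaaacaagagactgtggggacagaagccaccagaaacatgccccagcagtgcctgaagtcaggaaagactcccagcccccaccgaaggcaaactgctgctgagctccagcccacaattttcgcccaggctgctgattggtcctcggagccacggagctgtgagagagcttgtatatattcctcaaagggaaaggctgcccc
Acta2: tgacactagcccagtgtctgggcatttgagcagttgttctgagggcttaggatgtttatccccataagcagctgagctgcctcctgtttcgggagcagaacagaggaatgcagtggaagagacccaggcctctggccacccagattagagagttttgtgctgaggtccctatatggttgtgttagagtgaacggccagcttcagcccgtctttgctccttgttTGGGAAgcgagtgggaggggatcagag
TGGGAA, searched on both strands, was found in Acta2 27 bases before the start, in Vtn 236 before it and in Abcc9 221 before it, and not in Rgs5, Kcnj8 or Notch3, so in 3 of the 6 genes with a sequence in the RefSeq table. It occurred in 21.6% of all 32851 promoters in that table. A match of letters does not show binding.

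The first comparison asked how the vessel wall genes of mice with intact astrocytic Ripk3 differed between MPTP and saline. Vtn fell: it had 119.2, 117.2 and 132.5 CPM in the Cre- Saline libraries and 39.8, 72.0 and 68.9 CPM in the Cre- MPTP libraries. The groups did not overlap, and the means differed 2.04-fold on the fitted scale (log2 fold change -1.03, SE 0.195, adjusted p = 0.0108 by the quasi-likelihood test of edgeR, adjusted by Benjamini-Hochberg over 19360 genes). Vtn was the only member called of 10, where 3.18% of all genes tested were called and 0.956% were called lower. In homogenate, fewer cells of a type and less RNA per cell cannot be told apart. The call of Vtn was also made without Cre- MPTP replicate 1 (log2 fold change -0.80, edgeR adjusted p = 0.000349) and without Cre+ MPTP replicate 4 (-1.03, edgeR adjusted p = 0.0213). It was not made without Cre- Saline replicate 3 (-0.97, edgeR adjusted p = 0.0604), with the GC trend removed (-1.04, edgeR adjusted p = 0.0523) or in a fit of the 2 groups only (-1.03, edgeR adjusted p = 0.294).

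Among the receptor and signaling genes, Rgs5 had 114.4, 133.7 and 95.7 CPM in Cre- Saline and 21.2, 81.9 and 65.7 CPM in Cre- MPTP. These groups did not overlap either, but the spread in Cre- MPTP was wide, since replicate 1 lay 3.48-fold below the mean of the other two libraries, and the log2 fold change of -1.02 (SE 0.365) had an edgeR adjusted p of 0.214. With the GC trend removed Rgs5 was called (-0.94, SE 0.225, edgeR adjusted p = 0.0303), and without Cre- MPTP replicate 1 it was not (-0.63, SE 0.192, edgeR adjusted p = 0.0578). Pdgfrb, the PDGF receptor that pericytes need for recruitment, had 24.7, 30.1 and 38.1 CPM in Cre- Saline and 18.7, 35.7 and 26.2 CPM in Cre- MPTP. The Pdgfrb groups overlapped (log2 fold change -0.20, edgeR adjusted p = 0.675). Notch3, the Notch receptor of mural cells, had 29.8, 40.0 and 48.4 CPM against 106.9, 43.5 and 45.4, where only replicate 1 exceeded the saline range. Its log2 fold change was 0.72 (edgeR adjusted p = 0.305), and 0.18 without that library (edgeR adjusted p = 0.581).

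Kcnj8 and Abcc9 encode the pore and the sulfonylurea receptor of the vascular K-ATP channel, which couples vessel tone to metabolism. Kcnj8 had 8.10, 5.47 and 7.45 CPM in Cre- Saline and 17, 9.59 and 7 CPM in Cre- MPTP. Abcc9 had 10.1, 13.3 and 16.6 CPM in Cre- Saline and 4.55, 17 and 14.4 CPM in Cre- MPTP. Both overlapped between the groups, with log2 fold changes of 0.66 and -0.13 (edgeR adjusted p = 0.345 and 0.919). In Cre- MPTP replicate 1 these partners of 1 channel stood at opposite ends: Kcnj8 was 2.05-fold above the mean of the other two libraries and the highest of all 13, and Abcc9 was 3.45-fold below it and the lowest of all 13. Higd1b, which encodes a hypoxia-inducible domain family protein, had 3.57, 2.66 and 2.99 CPM against 0.867, 2.81 and 2.61, with 8 counts in replicate 1 (log2 fold change -0.50, edgeR adjusted p = 0.512).

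All 3 contractile genes had lower means in Cre- MPTP, and none was called. Acta2 had 15.2, 15.2 and 25.6 CPM in Cre- Saline and 4.01, 10.5 and 8.85 CPM in Cre- MPTP, without overlap (log2 fold change -1.24, SE 0.361, edgeR adjusted p = 0.107). Tagln, encoding the actin-binding protein transgelin, had 4.48, 4.96 and 8.18 CPM against 2.82, 3.56 and 3.33, also without overlap (-0.85, SE 0.374, edgeR adjusted p = 0.321). Myh11, the smooth muscle myosin heavy chain, had 9.05, 12.6 and 23.8 CPM against 6.07, 10.2 and 7.49, with overlap (-0.93, SE 0.311, edgeR adjusted p = 0.179). In each of these genes the highest value came from Cre- Saline replicate 3, and without it the log2 fold changes were -0.94, -0.54 and -0.44. Counts of Tagln are uncertain, because 62.4% of its exon bases are shared with the antisense gene Gm48529 (0.217 to 1.62 CPM) and the strand setting of the counting is not given in the sources used here.

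Over the 10 members in this comparison, 8 had a log2 fold change below 0 and the median was -0.67, against 0.03 over all genes tested. The members were apart between groups in 4 cases, all lower (Rgs5, Vtn, Acta2 and Tagln), where 15.1% of all genes were apart in either direction and 8.02% were lower. Without Cre- MPTP replicate 1 the median of the members was -0.41, and Vtn alone was called, where 9.38% of all genes were called. Without Cre+ MPTP replicate 4 the median was -0.67, and Vtn alone was called, where 2.89% of all genes were. limma voom with sample quality weights called Rgs5, Vtn, Acta2 and Myh11 lower, where it called 13.6% of all genes, and edgeR with the GC trend removed called Rgs5 alone, where it called 4.68%.

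**Figure D2:**
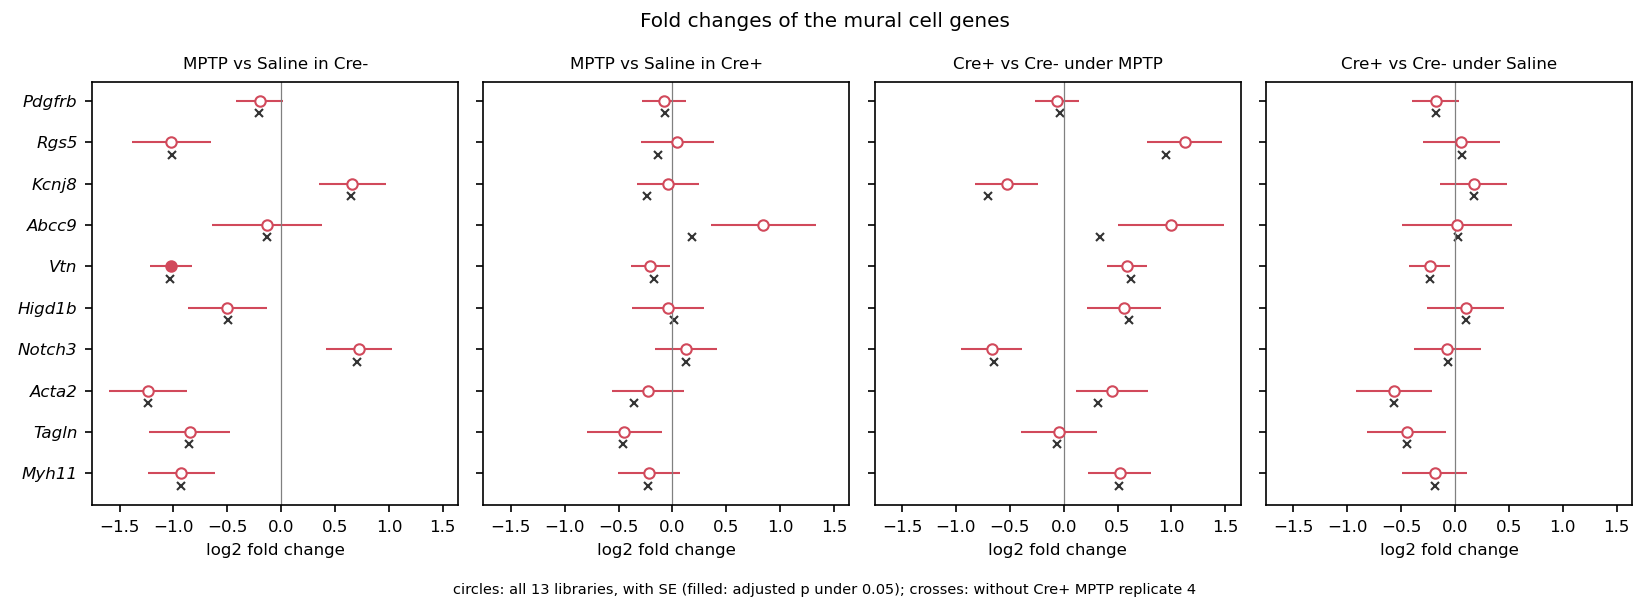
Log2 fold changes (x axis) of the 10 genes in 4 comparisons, with SE bars and a filled circle where edgeR's adjusted p was under 0.05. Vtn with MPTP in Cre- mice is the only filled circle; crosses give the values without Cre+ MPTP replicate 4, where Abcc9 moves from 0.84 to 0.18 with MPTP in Cre+ mice and from 1.00 to 0.33 between genotypes under MPTP.

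The same question in mice without astrocytic Ripk3 gave no call. edgeR called 0 of the 10 members between Cre+ MPTP and Cre+ Saline, where it called 0.0% of all genes. No member had an unadjusted p under 0.05 in edgeR, where 672 of the 19360 genes tested did. DESeq2 and limma voom called none of the members either, where they called 83 and 294 of the 19360 genes. Vtn had 109.1, 95.7 and 108.5 CPM in Cre+ Saline and 85.1, 104.1, 89.4 and 84.1 CPM in Cre+ MPTP. The Vtn groups overlapped, and the fold change was -0.20 on the log2 scale (SE 0.179, adjusted p = 1.0 in edgeR). Rgs5 had 113.7, 122.6 and 122.0 CPM in Cre+ Saline and 116.8, 111.3, 99.0 and 166.1 CPM in Cre+ MPTP. Its log2 fold change was 0.05 with all libraries and -0.13 without replicate 4, the library with heart muscle RNA. Acta2 had 14.9, 9.32 and 13.7 CPM against 7.54, 13.3, 8.78 and 13.6, and Pdgfrb, Notch3, Tagln, Myh11 and Higd1b likewise overlapped between the groups.

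Abcc9 was the only member of the 10 whose Cre+ groups did not overlap, where 9.66% of all genes were apart. It had 14.2, 13.7 and 12.7 CPM in Cre+ Saline and 16.1, 14.2, 15.7 and 51.0 CPM in Cre+ MPTP. The highest value belonged to replicate 4, at 3.33-fold the mean of the other three Cre+ MPTP libraries, and the closest values of the groups were both 14.2 when rounded. The log2 fold change of Abcc9 was 0.84 (SE 0.486, edgeR adjusted p = 1.0) with replicate 4 and 0.18 (SE 0.364, edgeR adjusted p = 1.0) without it. Kcnj8 in that library, at 10.5 CPM, was 1.56-fold the mean of the other three (6.73, 6.49 and 6.97 CPM), and Rgs5 was 1.52-fold. Abcc9 also encodes a subunit of the K-ATP channel of heart muscle, and the cardiac markers Myh6 (3296 CPM), Mb (1182 CPM) and Actc1 (797.3 CPM) were highest in the same library. The part of heart RNA in these levels was not tested. Vtn, Higd1b, Pdgfrb and Notch3 were 0.864-fold to 0.990-fold the mean of the other three there, Tagln and Myh11 1.04-fold and 1.03-fold, and Acta2 1.37-fold. Without replicate 4, edgeR again called 0 of the 10 members (0.0% of all genes). None had an unadjusted p under 0.05, where 490 of the 19196 genes tested did.

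Under MPTP, the genotypes were compared to ask whether the vessel wall genes differed with the loss of astrocytic Ripk3. edgeR called 0 of the 10 members between Cre+ MPTP and Cre- MPTP, where it called 1.54% of all genes. At an unadjusted p under 0.05 in edgeR there were 3, Rgs5, Vtn and Notch3, where 3684 of the 19360 genes tested reached that level. DESeq2 and limma voom each called 2, Rgs5 and Vtn, both higher in Cre+ MPTP, where they called 834 and 1224 of the 19360 genes. Rgs5 had 21.2, 81.9 and 65.7 CPM in Cre- MPTP and 116.8, 111.3, 99.0 and 166.1 CPM in Cre+ MPTP. Every Cre+ library lay above every Cre- library, and Rgs5 differed by 1.12 on the log2 scale (SE 0.348, adjusted p = 0.160 in edgeR). Vtn had 39.8, 72.0 and 68.9 CPM against 85.1, 104.1, 89.4 and 84.1, again apart (0.59, SE 0.183, edgeR adjusted p = 0.163).

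The libraries in question moved these values. Without Cre- MPTP replicate 1, edgeR called Rgs5 (log2 fold change 0.74, SE 0.185, adjusted p = 0.0485) as the only member, where it called 3.18% of all genes, and Vtn was at 0.36 (edgeR adjusted p = 0.0755). Without Cre+ MPTP replicate 4, no member was called, where edgeR called 0.563% of all genes. An unadjusted p under 0.05 was then reached by 3 members and by 2561 of the 19196 genes tested. Rgs5 was at 0.95 and Vtn at 0.62 in that fit (edgeR adjusted p = 0.350 and 0.295). With the GC trend removed, Rgs5 was the only member called (0.97, SE 0.214, edgeR adjusted p = 0.0338), where 2.32% of all genes were. Abcc9 differed by 1.00 (log2; SE 0.490, adjusted p = 0.287 in edgeR), which was 0.33 without Cre+ MPTP replicate 4 and -0.04 without both doubted libraries. Notch3 was lower in every Cre+ MPTP library (40.7, 39.3, 42.9 and 40.6 CPM) than in every Cre- MPTP library (106.9, 43.5 and 45.4 CPM), by a log2 fold change of -0.67 (edgeR adjusted p = 0.237) that was -0.13 without Cre- MPTP replicate 1. Kcnj8 was at -0.53 (edgeR adjusted p = 0.336) and at -0.11 without Cre- MPTP replicate 1.

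Myh11 was higher in each Cre+ MPTP library (10.9, 10.6, 12.5 and 11.7 CPM) than in each Cre- MPTP library (6.07, 10.2 and 7.49 CPM), with a log2 fold change of 0.52 (edgeR adjusted p = 0.347). Acta2 (0.45), Higd1b (0.56), Pdgfrb (-0.06) and Tagln (-0.05) overlapped between the genotypes. In all, 4 of the 10 members were apart (Rgs5, Vtn and Myh11 higher, Notch3 lower in Cre+ MPTP), where 11.3% of all genes were. The Cre- MPTP libraries enter both this comparison and the one with MPTP in Cre- mice, so their values of Rgs5 and Vtn are not independent. Across all 4 groups, Rgs5 and Vtn were the only members with each Cre- MPTP library below all 10 other libraries, as were 2.92% of all genes tested.

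The difference between the MPTP responses of the genotypes was tested itself as the interaction. edgeR called 0 of the 10 members, where it called 0.0103% of all genes. Among the members only Vtn had an unadjusted p under 0.05 (log2 difference 0.82, SE 0.265, edgeR adjusted p = 0.499). That level was reached by 1116 of the 19360 genes tested. Rgs5 was at 1.06, Acta2 at 1.01 and Abcc9 at 0.98 (edgeR adjusted p = 0.795 each), the last falling to 0.31 without Cre+ MPTP replicate 4. DESeq2 called none of the members and limma voom called Rgs5 and Vtn, where these tools called 223 and 689 of the 19360 genes. With all 13 libraries, a decline of Vtn in Cre- mice is therefore not shown by edgeR to differ from the smaller change in Cre+ mice. Without both Cre- MPTP replicate 1 and Cre+ MPTP replicate 4, edgeR called Vtn at the edge of the threshold, where it called 220 of 19148 genes.

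Without MPTP, the genotypes gave no call. edgeR, DESeq2 and limma voom each called 0 of the 10 members between Cre+ Saline and Cre- Saline. Over the 19360 genes tested, edgeR called 0.0%, DESeq2 called 2 genes and limma voom 3. No member had an unadjusted p under 0.05 in edgeR, where 176 of the 19360 genes did. Acta2 (14.9, 9.32 and 13.7 against 15.2, 15.2 and 25.6 CPM) and Vtn (109.1, 95.7 and 108.5 against 119.2, 117.2 and 132.5 CPM) were lower in each Cre+ Saline library, 2 of 10 members where 11.6% of all genes were apart. Their log2 fold changes were -0.56 (SE 0.354) and -0.24 (SE 0.192). The other eight overlapped, from -0.45 for Tagln to 0.17 for Kcnj8.

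**Figure D3:**
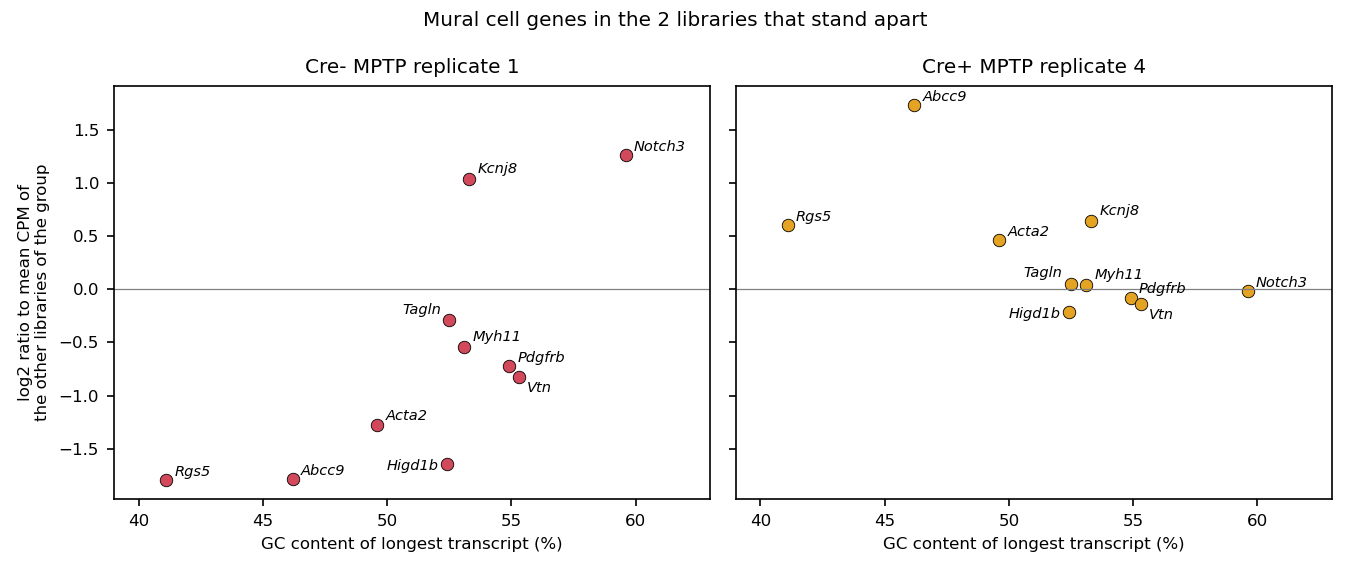
Log2 ratio of each mural gene's CPM in 1 library to the mean of the rest of its group (y axis) against the GC content of its longest transcript in percent (x axis). In Cre- MPTP replicate 1, Rgs5 (41.1% GC) lies at -1.80 and Notch3 (59.6% GC) at 1.27; in Cre+ MPTP replicate 4, Abcc9 lies at 1.74.

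The members' place in Cre- MPTP replicate 1 was set beside their base composition. The GC content of their longest transcripts ran from 41.1% (Rgs5) to 59.6% (Notch3), where the median of all genes tested was 49.6%. Rgs5 and Abcc9, with the lowest GC content of the 10 (41.1% and 46.2%), were at log2 ratios of -1.80 and -1.79 to the mean of the other Cre- MPTP libraries. Notch3, with the highest, was at 1.27. Higd1b and Kcnj8 broke this order, since they had 52.4% and 53.3% GC and log2 ratios of -1.64 and 1.04. Vtn and Pdgfrb did so too, at -0.83 and -0.73 with 55.3% and 54.9% GC, the highest after Notch3. The part of base composition in the levels of single members was not tested beyond the fit with the GC trend removed. This library held the lowest value of the 13 for 7 members and the highest for 2, Kcnj8 and Notch3.

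Further genes of mural cells were examined from lists of 22 pericyte genes and 20 smooth muscle genes, of which 22 and 18 were tested. With MPTP in Cre- mice, 1 further pericyte gene rose and 2 fell, where 3.18% of all genes were called and 0.956% were lower, and the median log2 fold change over the list was -0.26. Mcam, an adhesion molecule of pericytes and smooth muscle, had 41.0, 56.3 and 60.2 CPM in Cre- Saline and 18.4, 27.9 and 20.8 CPM in Cre- MPTP. It fell by 1.23 on the log2 scale (SE 0.195, with an adjusted p of 0.00386 in edgeR), and under MPTP it was higher in Cre+ mice (39.9, 43.9, 50.2 and 38 CPM; 0.94, SE 0.184, edgeR adjusted p = 0.0278). Slc38a11, an amino acid transporter gene, fell from 2.22, 3.79 and 3.76 CPM to 0.650, 1.23 and 1.68 CPM (log2 fold change -1.39, edgeR adjusted p = 0.0419). Ifitm1, an interferon-induced membrane protein gene also expressed outside pericytes, rose from 1.83, 3.05 and 2.19 CPM to 14, 14.7 and 15.8 CPM (2.65, SE 0.432, edgeR adjusted p = 0.00446). It was lower in Cre+ MPTP, at 2.14, 7.72, 2.17 and 3.47 CPM (-1.95, SE 0.381, edgeR adjusted p = 0.0278). Without Cre+ MPTP replicate 4, Ifitm1 and Mcam were called with MPTP in Cre- mice and neither passed between the genotypes, where the log2 fold changes were -1.90 and 1.00 (edgeR adjusted p = 0.0821 and 0.0571).

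Of the smooth muscle list, 0 rose and 2 fell with MPTP in Cre- mice, against the same 3.18% and 0.956% of all genes, and the median was -0.18. Myl9, the regulatory light chain of smooth muscle myosin, had 20.2, 18.8 and 24.2 CPM in Cre- Saline and 2.71, 7.45 and 7.03 CPM in Cre- MPTP. The log2 fold change was -1.84 (SE 0.283, adjusted p = 0.00324 in edgeR). Every Cre- MPTP value lay below all others, with 11.5, 13.3, 11.5 and 11.2 CPM in Cre+ MPTP and 16.5, 16.3 and 19.2 CPM in Cre+ Saline. Olfr558, an olfactory receptor gene of vascular smooth muscle, had 13 to 19 counts per Cre- Saline library and 0 to 5 per Cre- MPTP library (log2 fold change -2.09, edgeR adjusted p = 0.0328). It had 13 to 19 counts per Cre+ MPTP library, and was called higher there than in Cre- MPTP (2.23, edgeR adjusted p = 0.0353). Without Cre+ MPTP replicate 4, Olfr558 had similar fold changes in these comparisons (-2.08 and 2.27) that no longer passed (edgeR adjusted p = 0.0505 and 0.0761), while Myl9 was called with MPTP in Cre- mice. Slc38a11 was then at -1.38 (edgeR adjusted p = 0.0632). In Cre+ mice, and between genotypes under saline, edgeR called 0 genes of both lists.

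The partners of the members in their pathways were not called. No gene of 5 PDGF ligands and receptors, 15 Notch genes, the K-ATP paralogs Kcnj11 and Abcc8 or 6 RGS paralogs passed the edgeR test in any of the 5 comparisons. Of all genes tested, edgeR called 3.18% with MPTP in Cre- mice and 1.54% between genotypes under MPTP. It called 0.0103% for the interaction and 0.0% in the other comparisons. Pdgfb, the endothelial ligand of Pdgfrb, had 18.8, 16 and 20.7 CPM in Cre- Saline and 34.5, 13 and 13.1 CPM in Cre- MPTP (log2 fold change 0.11, edgeR adjusted p = 0.888). Jag1, the Notch ligand of the vessel wall, had 13.1, 15.6 and 14.8 CPM against 11.4, 12.6 and 11.8, and Heyl, a Notch target of mural cells, had 11.5, 13.6 and 15.3 CPM against 10.2, 9.55 and 10.3. Both were apart but not called (-0.28 and -0.43, edgeR adjusted p = 0.386 and 0.305), where 15.1% of all genes were apart. Nearest the threshold in these lists were Notch4 (1.73, edgeR adjusted p = 0.0852) and Rgs16 (0.84, edgeR adjusted p = 0.0618), both apart and higher with MPTP in Cre- mice. Between genotypes under MPTP both were apart and lower in Cre+ (-1.70 and -0.82, edgeR adjusted p = 0.0887 and 0.0716), where 11.3% of all genes were apart. Notch4 had 73.6, 16.7 and 15.7 CPM in Cre- MPTP. Kcnj11 (31.3 to 49.0 CPM over the 13 libraries) and Rgs4 (26.2 to 125.5 CPM) are relatives of Kcnj8 and Rgs5. Neither was called (-0.07 and -0.56 with MPTP in Cre- mice). Kcnj11 was highest in Cre+ MPTP replicate 4, the library with heart muscle RNA. Rgs4, like Rgs5, was lowest in Cre- MPTP replicate 1.

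Of 11 actin, myosin and transgelin paralogs, 10 were tested. With MPTP in Cre- mice edgeR called 1 of them, where it called 3.18% of all genes, and none in the other comparisons. Tagln2, the relative of Tagln in non-muscle cells, rose with MPTP in Cre- mice from 11.5, 10.5 and 9.97 CPM to 22.7, 24.8 and 30.7 CPM (log2 fold change 1.29, SE 0.177, edgeR adjusted p = 0.00206). In Cre+ mice it had 10.2, 8.26 and 8.76 CPM under saline and 16.8, 20.0, 14.8 and 20.6 CPM under MPTP, apart but not called (0.99, edgeR adjusted p = 0.138). In Cre- mice Tagln had the opposite sign in the same libraries. Actc1, the cardiac actin, had 0.117 to 17.2 CPM in 12 libraries and 797.3 CPM in Cre+ MPTP replicate 4, whereas its smooth muscle relative Acta2 was at 13.6 CPM in that library, close to the 13.3 CPM of replicate 2. Des (159.1 CPM, 70.3-fold the mean of the other three), Art3 (38.5 CPM, 6.48-fold) and Tpm1 (834 CPM, 6.26-fold) of the further lists were also highest in that library.

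**Figure D4:**
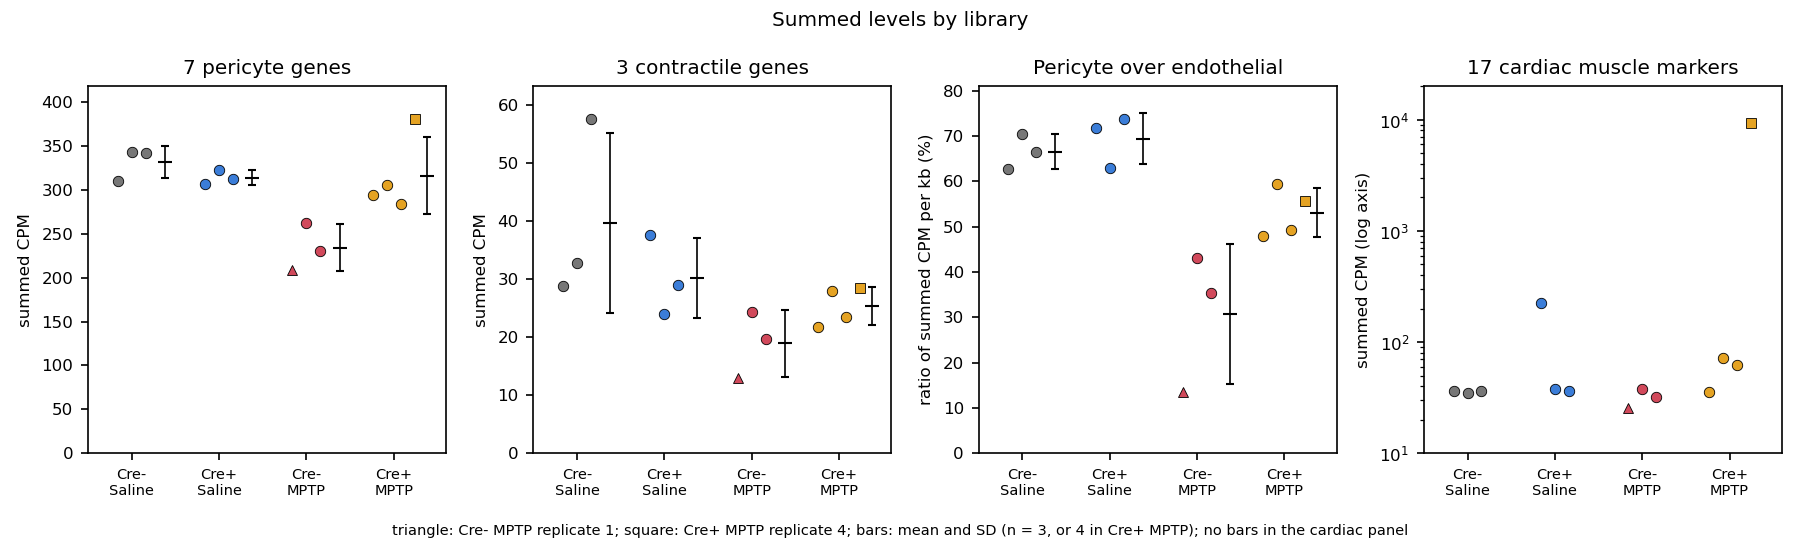
Summed CPM of the 7 pericyte genes and of the 3 contractile genes, the ratio of pericyte to endothelial genes per kilobase in percent, and the summed CPM of 17 cardiac markers on a log axis, each by library. The ratio is 13.5% to 43.2% in Cre- MPTP, 47.9% to 59.5% in Cre+ MPTP and 62.7% to 73.7% in the saline groups. The square, Cre+ MPTP replicate 4, is at 9243 CPM in the cardiac panel.

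Set against the vessel's other cell layer, the sum of the 7 pericyte genes per kilobase was 62.7%, 70.4% and 66.6% of the sum of 12 endothelial genes in Cre- Saline. It was 71.7%, 63% and 73.7% in Cre+ Saline, 13.5%, 43.2% and 35.4% in Cre- MPTP, and 47.9%, 59.5%, 49.3% and 55.7% in Cre+ MPTP. All 3 Cre- MPTP libraries lay below all others. Every Cre+ MPTP library in turn lay below every saline library of both genotypes. The pericyte genes summed to 209.1 to 262.6 CPM in Cre- MPTP against 283.4 to 379.9 in the other groups. The endothelial genes summed to 569.9 to 861.3 CPM in Cre- MPTP, highest in replicate 1, and 480.1 to 656.0 in the other groups. No endothelial gene was at 0 in any library. The endothelial genes did not move together. Slc2a1 had 360.8, 202.1 and 200.7 CPM in Cre- MPTP and 138.1 to 173.0 in the other groups. Cldn5 had 298.4 CPM in Cre- MPTP replicate 1 and 45.1 to 87.1 in all other libraries. Kdr, Tek and Slco1a4 were lower in each Cre- MPTP library than in every other library, as were 2.92% of all genes tested. With MPTP in Cre- mice, where it called 3.18% of all genes, edgeR called 1 of the 12 endothelial genes (Tek, lower), 2 of 7 microglia genes (P2ry12 and Siglech, lower), 1 of 7 astrocyte genes (Aldh1l1, higher), 1 of 10 fibroblast genes higher and 2 lower, and none of the dopaminergic neuron, cardiac, red cell, skeletal muscle or choroid plexus genes. Their part in the mural values was not tested. Vtn and Rgs5 were the most abundant pericyte members in Cre- Saline and gave most of the sums there. In Cre- MPTP replicate 1, Notch3 gave 106.9 of the 209.1 CPM. Mean CPM per kilobase in Cre- Saline and Cre- MPTP was 60.6 and 29.7 for Vtn and 25.2 and 12.4 for Rgs5. Notch3 (4.90 and 8.11) and Kcnj8 (2.75 and 4.40) had higher means in Cre- MPTP. Pdgfrb (5.66 and 4.91), Higd1b (3.63 and 2.47) and Abcc9 (1.59 and 1.43) had lower means. All pericyte genes but Vtn and Rgs5 overlapped between these groups. The 3 contractile genes summed to 12.9 to 24.3 CPM in Cre- MPTP, overlapping with Cre+ MPTP (21.7 to 28.5) and Cre+ Saline (24.0 to 37.6) and lying below Cre- Saline (28.8 to 57.5).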

How the data were processed

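RNA-Seq of midbrain homogenate was deposited as 1 file per mouse for 13 mice, with no library pooled. Per the labels and methods, the authors used Trimmomatic 0.36 for trimming, STAR 2.5.2b for mapping to GRCm38 and featureCounts (Subread 1.5.2) for uniquely mapped reads per gene; the deposited values are these raw counts, without normalization. The strand setting and annotation release of the counting are not given in the sources used here. Symbols, positions and transcript GC content were taken from GENCODE M21 (GRCm38), and promoters from RefSeq (GRCm38.p6).

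The counts were normalized with TMM and fitted in edgeR 4.0.16 (R 4.3.3) over all 13 libraries, with 1 term per group, for genes that reached 10 counts in 3 libraries or more. The quasi-likelihood test was used, p-values were adjusted by Benjamini-Hochberg over all genes tested in each of 5 comparisons, and genes were called at an adjusted p under 0.05. The SE of a log2 fold change is its size divided by the square root of F. CPM and CPM per kilobase of exon use the TMM-adjusted totals. The fit was tested on simulated data.

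The total counts of 11489150 to 29397278 per library limit the precision for genes with few counts, such as Higd1b and Olfr558; no interval was computed. Alternatives were DESeq2 1.42.0, limma voom 3.58.1 with sample quality weights, edgeR on 2 groups, other scalings and filters, a replicate block, each library left out, and Cre- MPTP replicate 1 left out together with Cre+ MPTP replicate 4; removal of a trend on GC content, the same 12 libraries without the block, and leaving out Cre+ Saline replicate 1 with Cre+ MPTP replicate 4, were chosen after the data were seen. The members, the gene lists and the markers of other cell types were chosen with earlier results of these data known, so no list is independent evidence. Named were all members, called genes of the other lists, and Pdgfb, Jag1, Heyl, Kcnj11, Actc1 and Rgs4. Des, Art3, Tpm1, Notch4 and Rgs16, and the single cardiac markers, were named after their values were seen.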

Additional observations from a re-analysis of the deposited data

Results flagged for a closer look

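In Cre+ MPTP, 4 values lay far from the rest of their group by Dixon's test for an outlying sample, which picks about 1 group in 20 by chance. All 4 belonged to replicate 4. Abcc9 was at 51.0 CPM there against 14.2 to 16.1 CPM in the other three, and Kcnj8 at 10.5 CPM against 6.49 to 6.97. The 17 cardiac markers summed to 9243 CPM against 35.7 to 71.9, and 5 red cell genes to 87.4 CPM against 1.55 to 9.13. The 10 members and 6 summed lists were tested in this way; groups of 3 were not tested. Rgs5, which was also highest in this library, did not pass.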

How the results depend on the processing

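Vtn with MPTP in Cre- mice kept its sign under all alternatives (log2 fold change -1.17 to -0.80 with each library left out) and was called by edgeR in 12 of 13 such fits and 8 of 10 others, and by DESeq2 and limma voom. Members called in that comparison numbered 1, and 2 with DESeq2 (Vtn, Acta2), 4 with limma voom, 0 in edgeR on 2 groups, 2 without both Cre- MPTP replicate 1 and Cre+ MPTP replicate 4 (Rgs5, Vtn), and 0 to 1 with single libraries left out (0 without Cre- Saline replicate 3). Between genotypes under MPTP the number was 0, and 2 with DESeq2, 2 with limma voom, 1 with both libraries out, 1 with the GC trend removed (Rgs5 in both of these) and 0 to 2 with single libraries left out (Rgs5 without Cre- MPTP replicate 1, Rgs5 and Vtn without replicate 2). For the interaction it was 0, and 2 with limma voom and 1 with both libraries out (Vtn, at the edge of the threshold). The causes were not tested. Over all genes tested, the calls in these comparisons, in the same order, were 1137, 834 and 223 with DESeq2. They were 2624, 1224 and 689 with limma voom, 616, 299 and 2 with edgeR, and 1923, 557 and 220 with edgeR and both libraries out. Between genotypes under MPTP, edgeR called 450 with the GC trend removed, 614 without Cre- MPTP replicate 1 and 1826 without replicate 2. Of 1235 alternatives of single genes, 1158 kept direction and side of the threshold, 3 lost a call, 18 gained one and 56 had the opposite sign, 0 of them called.

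Signs turned only in uncalled values. With limma voom the log2 values were, for MPTP in Cre- mice, Abcc9 0.17, for MPTP in Cre+ mice, Rgs5 -0.028 and Higd1b 0.031, between genotypes under MPTP, Acta2 -0.013, under saline, Rgs5 -0.060 and Abcc9 -0.011, and for the interaction, Pdgfrb -0.0079 and Notch3 0.019. Without both Cre- MPTP replicate 1 and Cre+ MPTP replicate 4 they were Pdgfrb 0.010 and Abcc9 0.25 (MPTP in Cre-), Rgs5 -0.13 and Higd1b 0.024 (MPTP in Cre+), Abcc9 -0.035 (genotypes under MPTP), and Pdgfrb -0.067 and Abcc9 -0.058 (interaction). Without Cre+ Saline replicate 1 and Cre+ MPTP replicate 4 they were Rgs5 -0.17 and Tagln 0.028 (MPTP in Cre+) and Abcc9 -0.012 (saline). With library totals in place of TMM, Pdgfrb was 0.0038 and Tagln 0.027 (genotypes under MPTP). With the GC trend removed, Pdgfrb was 0.015 (genotypes under MPTP), Abcc9 -0.020 and Notch3 0.038 (saline).

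With single libraries left out, the values that turned ranged, for MPTP in Cre- mice, from -0.45 to 0.24 for Abcc9 and -0.46 to 0.0014 for Pdgfrb. For MPTP in Cre+ mice they ranged from -0.13 to 0.14 for Rgs5, -0.76 to 0.031 for Tagln, -0.14 to 0.0115 for Pdgfrb, -0.23 to 0.083 for Kcnj8 and -0.24 to 0.085 for Higd1b. Between genotypes under MPTP they ranged from -0.26 to 0.20 for Pdgfrb and -0.16 to 0.092 for Tagln. Under saline they ranged from -0.14 to 0.22 for Abcc9, -0.32 to 0.0065 for Pdgfrb, -0.048 to 0.19 for Rgs5, -0.25 to 0.11 for Notch3, -0.45 to 0.30 for Myh11 and -0.025 to 0.30 for Higd1b. The interaction of Pdgfrb ranged from -0.082 to 0.37.

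Groups shared replicate numbers, but deviations of same-numbered libraries correlated at only -0.179 to 0.184, so the numbers were not taken to pair mice. With a replicate block on 12 libraries (without Cre+ MPTP replicate 4), edgeR called 422 genes with MPTP in Cre- mice and 0 between genotypes under MPTP, against 555 and 108 without the block. It called the same 1 member with MPTP in Cre- mice, Vtn (log2 fold change -1.05, edgeR adjusted p = 0.0308), and no member elsewhere. With the replicate block, Rgs5 was -0.12 and Higd1b 0.037 (MPTP in Cre+) and Pdgfrb 0.0052 (genotypes under MPTP); on the same libraries without the block, Rgs5 was -0.13 and Higd1b 0.012 (MPTP in Cre+).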
